A study of Mus musculus with 6 samples.

Results

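The kidneys described here are the control kidneys of a mouse study of Hedgehog signalling in the embryonic renal stroma. They are 3 of the 6 RNA sequencing libraries of the series, and all 22394 genes of its deposited table were read in them. Each library is labelled as whole kidney at E13.5 (embryonic age in days after conception) from an embryo with 1 floxed and 1 wild-type allele of Ptch1, the gene of the Hedgehog receptor. The controls were littermates of embryos with the genotype Foxd1Cre;Ptch1 (flox/-), whose 3 libraries were compared with nothing here. They enter only through the table's means over 6 libraries, which served to turn FPKM into normalized counts, and through which genes the table lists. The label of the controls names no Cre, and the floxed allele is carried by every control, so none of the libraries is wild type at Ptch1 by its label. The kidneys of an embryo were taken whole and in pairs. The libraries are named control 1, 2 and 3 after the sample numbers of the labels, and values given in a row are in that order.

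The kidney of the mouse grows from an exchange of signals between an epithelial tree, the ureteric bud, and the mesenchyme around its tips. Nephron progenitors that carry Six2 cap the tips, renew themselves and turn into epithelium in answer to Wnt signals. Stromal progenitors that carry Foxd1 surround them and give rise to the interstitium and to many of the cells of vessel walls. Endothelium, red cells in the vessels and a few macrophages complete the organ. At this age the tree is still adding tips while its earliest nephrons take shape. A whole organ library mixes all of these cells, so fewer cells of a type and less RNA per cell cannot be told apart in any value below.

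The libraries held 21644399, 24962204 and 25416896 reads on listed genes. Levels are given as FPKM, fragments scaled to the length of the gene and the depth of the library. With a gene of median length, 1 read was worth 0.0169, 0.0147 and 0.0150 FPKM. Control 2 stood apart from the other libraries before any gene list was read. Its Spearman correlation over 16682 genes was 0.968 with control 1 and 0.976 with control 3, whereas controls 1 and 3 had 0.989. Over these genes control 2 was the highest library at 42.2% and the lowest at 38.9%. Counts of list members highest or lowest in control 2 are to be read beside these shares. Controls 1 and 3 also carried Xist, the RNA of the inactive X chromosome, at 72.9 and 53.3 FPKM, and control 2 had it at 0.0471 FPKM. The Y-linked gene Ddx3y had the reverse pattern, with 0.0598, 17.8 and 0.0177 FPKM. The libraries were therefore not matched for sex. Means over the 3 libraries are given with their SD, and the value of each library is given wherever control 2 moved a result.

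A broad part of the genome was expressed. At 1 FPKM or more in all 3 libraries there were 12537 genes, 56.0% of those listed, of which 11399 were protein coding. At 10 FPKM or more there were 5891 genes, at 100 FPKM or more 516, and at 1000 FPKM or more 31. The median mean FPKM over all listed genes was 2.47, and 30 listed genes had no read in any control. Single libraries reached 1 FPKM with 13454, 13294 and 13242 genes. The count of expressed genes thus varied little between libraries, whatever else set control 2 apart.

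A small number of genes made up much of the RNA. The 10 most abundant genes of a library held 7.11% ± 0.496 (SD, n = 3) of its summed FPKM, the 100 most abundant 28.3% ± 1.24 and the 1000 most abundant 59.96% ± 1.04. The ranking was only partly shared: 5 genes were among the 10 most abundant in every library, 81 among the 100 and 840 among the 1000. Ranked by reads instead, with no scaling to length, the 100 genes with the most reads held 16.8% ± 0.549 of the reads. These need not be the 100 genes of highest FPKM. The curves of abundance against rank lay close together in the plot over all ranks.

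**Figure D1:**
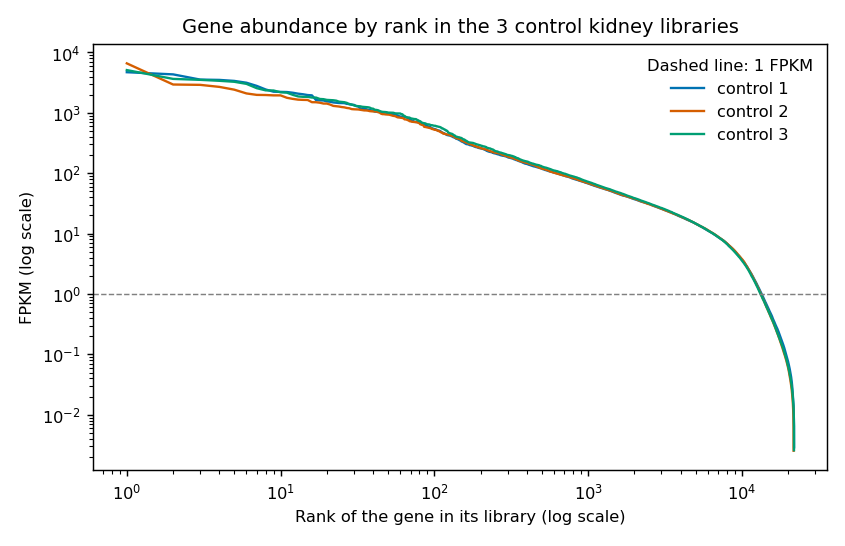
FPKM of each gene (vertical log axis) against its rank in its own library (horizontal log axis), with 1 line for each control and a dashed line at 1 FPKM. The lines cross 1 FPKM at ranks 13454, 13294 and 13242 in controls 1, 2 and 3.

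At the head of the ranking was Eef1a1, which delivers aminoacyl-tRNA to the ribosome. Its level was 3514, 6606 and 5112 FPKM, so even the leading gene differed 1.88-fold between libraries. Next came Ptma, the nuclear protein prothymosin alpha, with 3558, 2948 and 3652 FPKM. The cytoskeletal genes followed, with beta-actin (Actb) at 2156, 1985 and 2359 FPKM and the actin-binding thymosin Tmsb10 at 2229, 1705 and 2159 FPKM. The chaperone Hsp90ab1 (1600 ± 66.1 FPKM) and the translationally controlled tumour protein gene Tpt1 (1623 ± 69.1 FPKM) were the steadiest of the 20 most abundant genes, predicted genes and pseudogenes left out, with CVs of 4.13% and 4.25%. Of the tubulins that build the spindle and microtubules, Tubb5 reached 1039.5, 1052 and 1244 FPKM and Tuba1b 731, 892 and 977 FPKM. Among histones the leaders were the replication-independent variants H2afz, at 400, 781 and 626 FPKM, and H3f3b, at 355, 448 and 394 FPKM. Of 72 listed histone genes 48 were at 1 FPKM or more in every library. Replication-dependent histone mRNAs lack a poly(A) tail and an mRNA kit was used here, and whether that lowered their values was not tested.

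Ribosomal protein genes were the most abundant family. All 79 genes of the cytosolic ribosome passed 10 FPKM in every library, their median was 875 FPKM, and 57 of them were among the 100 genes with the highest mean. Together they held 16.6%, 16.7% and 17.0% of the summed FPKM, and 7.42%, 7.49% and 7.78% of the reads. Their median CV between libraries was 9.40%, against 17.3% over all genes whose normalized count averaged 10 or more. Over all genes the median CV fell with level to 11.988% at 1000 to 3000 normalized counts. It fell no further above that, and over genes averaging 10000 or more it was 12.9%. The highest was Rplp1 of the stalk of the large subunit, with 3156, 2909 and 3271 FPKM. Rps14 had 2796, 2692 and 3395 FPKM and Rps15, also of the small subunit, 2241, 1948 and 2193 FPKM. The range ran down to 95.5 FPKM, still well above the median gene.

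Transcripts of ribosomal proteins are known to start in a run of pyrimidines, the TOP motif, through which their translation answers to growth signals. The letters CTTTC, a short pyrimidine run, were searched on the sense strand from 10 bases before to 10 after the start in the RefSeq promoter table (GRCm38.p6), which held 58 of the 79 genes. A match was present in 9 of 58 (15.5%) and in 656 of 27025 promoters of all genes (2.43%). On the other strand the same window matched in 2 of 58 (3.45%) and in 2.14% of all promoters. The TATA letters TATAAA, searched on the sense strand from 45 to 15 bases before the start, were found in 0 of 58 and in 2.36% of all promoters. The sequences below run from 40 bases before to 10 bases after the start, with every CTTTC of the searched window in capitals. The first 5 are ribosomal protein genes of high FPKM that hold a match. Rps15 and Rpl19, also of high FPKM and without a match in the stretch shown, are given for contrast. Not every ribosomal protein gene was considered for display, so these are examples and not a ranking. Rpl19 has 2 listed starts, not all of which are shown.
Rpl7a (chr2:26910767-26910816, + strand, 1529.5 FPKM): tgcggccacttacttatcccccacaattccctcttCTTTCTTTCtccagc
Rpl28 (chr7:4792925-4792974, + strand, 1069 FPKM): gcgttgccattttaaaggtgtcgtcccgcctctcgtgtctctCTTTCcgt
Rps10 (chr17:27635235-27635284, - strand, 1025 FPKM): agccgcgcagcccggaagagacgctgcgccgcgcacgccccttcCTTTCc
Rps27 (chr3:90213639-90213688, - strand, 980.1 FPKM): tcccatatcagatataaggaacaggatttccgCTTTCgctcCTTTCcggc
Rplp2 (chr7:141447611-141447660, + strand, 762 FPKM): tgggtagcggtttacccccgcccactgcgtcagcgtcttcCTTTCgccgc
Rps15 (chr10:80292391-80292440, + strand, 2127 FPKM): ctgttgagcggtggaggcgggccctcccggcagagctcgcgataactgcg
Rpl19 (chr11:98026670-98026719, + strand, 1802 FPKM): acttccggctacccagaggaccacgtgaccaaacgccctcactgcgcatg
A match here is a run of letters and not a tested start site, and most of the 58 genes had none. Genes with and without it stood side by side at high FPKM.

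Mitochondrial transcripts were abundant in controls 1 and 3 and much less so in control 2. They held 4.17%, 0.708% and 2.91% of the summed FPKM. The 13 protein genes of the mitochondrial genome took 2.12%, 0.367% and 1.53% of the reads, and all 13 were lowest in control 2. Cytochrome b (mt-Cytb) had 4711, 708 and 3522 FPKM, and mt-Nd1, a subunit of complex I, had 4339, 702 and 3020 FPKM. Levels within this group spanned an extreme range, from 2980 FPKM for mt-Cytb to 1.39 FPKM for mt-Nd4l. Low values went with sequence that other annotated genes share. Of all 50-base windows of mt-Co2, 100% also occur in another annotated gene, and its mean was 15.04 FPKM. The shares were 99.9% for mt-Co3 (13.52 FPKM), 99.5% for mt-Atp6 (13.1 FPKM), 98.0% for mt-Nd3 (4.71 FPKM) and 98.8% for mt-Nd4l. None of the windows of mt-Cytb or mt-Nd1 is shared. The short gene mt-Atp8 and the complex I gene mt-Nd6 are exceptions, with no shared window and means of 5.15 and 41.6 FPKM. Genes shared only in part could be high: mt-Co1 (51.1% shared) had a mean of 1805 FPKM and mt-Nd4 (62.2%) 1076 FPKM. Whether the counting left out reads that map to several genes was not tested, and the summed mitochondrial share is to be read as that of the genes as counted.

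Red cell RNA was plentiful, and its make-up differed between libraries. Hemoglobin joins alpha-like and beta-like chains, and the embryonic chains are replaced by adult ones as primitive red cells give way to definitive ones. The embryonic beta-like gene Hbb-y had 2440, 524 and 1843 FPKM, and the adult beta gene Hbb-bs had 539.7, 1499.9 and 759.7 FPKM. The embryonic genes Hbb-y and Hbb-bh1 thus supplied 79.6%, 22.7% and 68.8% of beta-like FPKM. On the alpha side Hba-x, the embryonic chain, supplied 16.0%, 3.09% and 11.1%, beside 1121, 1205 and 813 FPKM of the adult gene Hba-a1. All globins together had 4596, 3689.6 and 3694 FPKM, so the total differed far less than the ratio. Hba-a1 and Hba-a2 share 67.5% and 86.9% of their windows with each other, and Hbb-bs and Hbb-bt share 65.8% and 58.3%, so the split within each pair is uncertain. The erythroid transcription factor Klf1 was low, at 0.599, 0.287 and 0.479 FPKM. Alas2, the erythroid enzyme of heme synthesis, was highest in control 2, with 5.31, 17.995 and 6.73 FPKM.

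Imprinted genes of fetal growth were high. These genes are expressed from 1 parental allele and many of them govern embryonic size. The non-coding RNA H19 stood 9th of all listed genes by mean, with 2214, 1776 and 2346 FPKM. Mest, an imprinted hydrolase gene, had 1019.7, 715 and 1037 FPKM. The cell cycle inhibitor Cdkn1c had 689, 538 and 953 FPKM and Gnas, the stimulatory G protein alpha subunit, 510.3, 441 and 553 FPKM. Grb10, an adaptor that restrains insulin-like growth factor signalling, had 182, 247 and 229 FPKM. The list of 20 had a median of 44.2 FPKM, and 19 of its members were at 1 FPKM or more in every library. The lowest was Rtl1, at 0.356 ± 0.233 FPKM. Igf2, the growth factor whose gene neighbours H19 (mm10 chr7:142650766-142666816, minus strand), was listed at only 36.6, 45.6 and 56.3 FPKM. A second annotated gene on the same strand covers 99.98% of Igf2 and holds 75.9% of its windows, and it was itself listed at 0.0320 FPKM. The listed level of Igf2 therefore cannot be compared with that of H19. For the insulin-like growth factor binding proteins overlap and shared windows were not examined. Of these, Igfbp4 had 197, 129.96 and 208 FPKM and Igfbp5 174, 72.2 and 171 FPKM.

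Non-coding genes other than H19 held little of the RNA. Long intergenic RNAs took 1.03%, 0.706% and 0.900% of the reads with H19 included, which alone had 110450, 101797 and 131795 reads. Of 960 listed, 136 were at 1 FPKM or more in every library, against 11399 of 16033 coding genes. After H19 the highest were AC161763.1, with 631, 402 and 624 FPKM, and Gm10076, with 308, 513 and 374 FPKM. Cct6a had 153, 251 and 198 FPKM. It is placed among non-coding genes only by its annotation as a processed transcript, a label that was not checked. Lower in the order came Gas5, a host of small nucleolar RNAs, with 164, 80.8 and 112 FPKM. Further snoRNA hosts, Snhg8 (105, 53.1 and 82.9 FPKM) and Snhg3 (106, 32.6 and 66.4 FPKM), were also lowest in control 2. The nuclear RNA Malat1 was highest in control 1, at 91.8, 40.9 and 37.1 FPKM. Processed pseudogenes were listed for 2303 loci and took 0.610%, 0.685% and 0.593% of the reads. A few of them ranked very high. Gm10736, 11th of all listed genes by mean, had 1449, 2422 and 1793 FPKM, and Rps2-ps13 had 1026, 1641 and 726 FPKM. The transcript of Gm10736 is 78 bases long, and 100% of its windows also occur in Gm10076. Of the windows of Rps2-ps13, 89.8% occur in other annotated genes, so the levels of these loci are uncertain.

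The marker lists ordered the cell types of the kidney by level. By the median over all members, the cortical stroma and nephron progenitor lists were at the top of the cell type lists and differentiated nephron segments at the bottom of the renal ones, as the plot of list medians shows. The medullary and ureteric stroma list lay lower, at 8.82 FPKM. The order depends on the markers chosen: with defining markers only, the erythroid list was highest at 989.7 FPKM, against 66.6 FPKM for cortical stroma. A median over different markers is not a share of cells, since each marker has its own level in its own cell type.

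**Figure D2:**
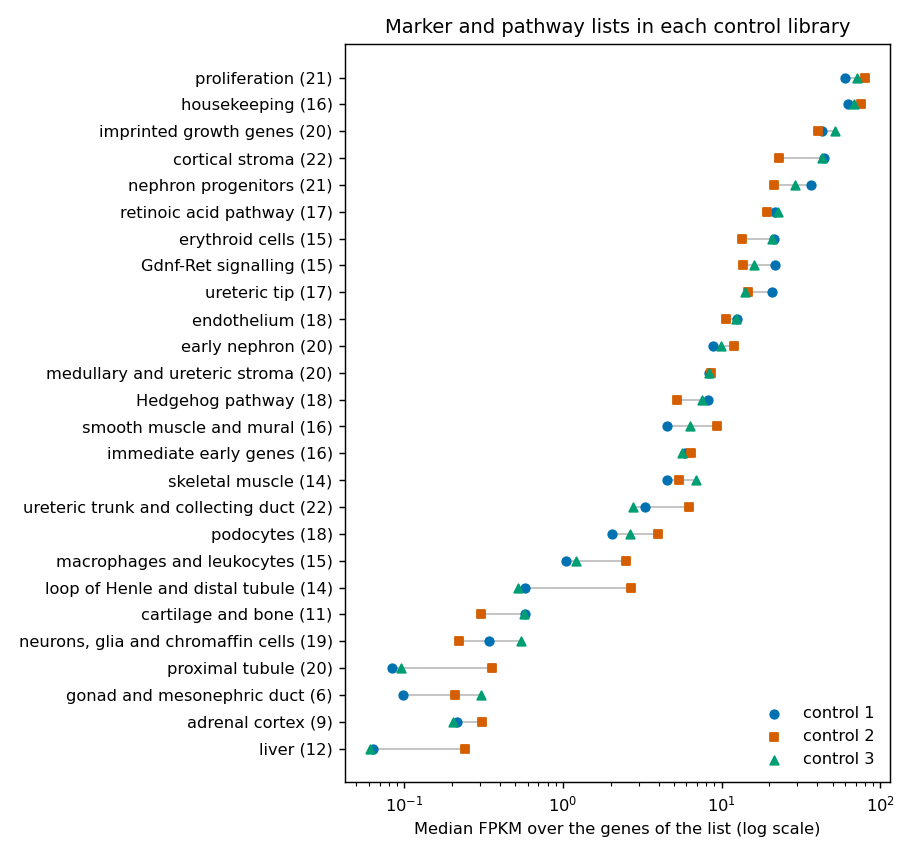
Median FPKM over the members of each list (horizontal log axis) in controls 1, 2 and 3, with the number of listed genes in brackets and a grey line from the lowest to the highest library. By the median of member means, proliferation genes lay highest (71.7 FPKM, with housekeeping genes higher in control 1) and liver genes lowest (0.115 FPKM). The proximal tubule, distal tubule and liver lists were several-fold higher in control 2.

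Nephron progenitor genes were expressed strongly and almost as a whole. Of 21 members 20 were at 1 FPKM or more in every library and 16 at 10 FPKM or more, with a median of 29.5 FPKM. Six2, the homeobox gene that keeps these cells from differentiating, had 176, 97.9 and 158 FPKM. Cited1, a co-regulator of the least committed progenitors, had 72.04, 76.3 and 75.8 FPKM, and Eya1, a phosphatase that works with Six2, 29.1, 24.4 and 24.5 FPKM. Meox1, a homeobox gene of the cap, was lowest in control 2, with 36.7, 17.7 and 34.0 FPKM. Cited1 and Eya1 were steady while Six2 and Meox1 were lower in control 2. High members beyond the defining ones were Uncx (131, 83.5 and 98.5 FPKM), Capn6 (80.4, 88.6 and 102 FPKM) and the Wilms tumour gene Wt1 (58.9, 68.3 and 63.5 FPKM). Pax2, needed in both the bud and the mesenchyme, had 57.8, 53.4 and 46.0 FPKM.

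Genes of the first epithelial nephron stages were also present. Of 20 members 17 were at 1 FPKM or more in every library, with a median of 11.7 FPKM. Wnt4, the signal that drives the change from mesenchyme to epithelium, had 31.0, 24.5 and 27.1 FPKM. Pax8, which acts with Pax2 in early nephrons, had 18.2, 32.4 and 16.8 FPKM, and the LIM homeobox gene Lhx1 15.6, 25.4 and 12.02 FPKM. The Notch ligand Jag1, of the forming proximal part, had 10.5, 13.3 and 10.9 FPKM. Fgf8, a survival signal of the pretubular cells, ran the other way from most, with 19.8, 10.4 and 15.4 FPKM. Of the members, 15 were highest in control 2 and 5 lowest there, against 42.2% and 38.9% of all genes. The highest was the cyclin Ccnd1, with 137, 186 and 124 FPKM, a gene that many dividing cells use.

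Podocyte genes split into 2 kinds. Genes that mesenchyme also expresses were high, among them Cdkn1c, Tcf21 (138, 106 and 132 FPKM) and the actin crosslinker Actn4 (121, 98.1 and 116 FPKM). Nphs1, nephrin of the slit diaphragm that marks the mature cell, was near 0 in controls 1 and 3, with 0.0497, 1.28 and 0.0618 FPKM. Podxl, the podocyte and endothelial sialomucin, had 5.10, 11.5 and 5.89 FPKM. In between were Synpo, with 3.05, 5.76 and 4.24 FPKM, and Vegfa, with 31.7, 21.6 and 24.9 FPKM. The lowest member was Col4a3 of the mature glomerular basement membrane, at 0.107, 0.0187 and 0.0428 FPKM.

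Transporter genes of the tubule were hardly expressed. Of 20 proximal tubule genes 2 were at 1 FPKM or more in every library and 14 were below it in every library, and the median was 0.210 FPKM. Without control 2 the median was 0.0702 FPKM. Lrp2, megalin, had 0.356, 0.918 and 0.329 FPKM, and its partner Cubn 0.0692, 0.177 and 0.0434 FPKM. Slc34a1, the phosphate transporter of the proximal tubule, had 0.0115, 1.19 and 0.0102 FPKM. Hnf4a, a transcription factor needed for proximal tubule formation, had 0.378, 9.30 and 0.550 FPKM. The 2 members at 1 FPKM or more were the cadherin gene Cdh6, with 7.24, 5.86 and 6.82 FPKM, and the water channel Aqp1, with 2.46, 4.19 and 4.26 FPKM. In the loop and distal list the median was 1.11 FPKM, and 0.531 FPKM without control 2. Slc12a1, the cotransporter of the thick ascending limb, had 0.00967, 1.53 and 0.00859 FPKM. Umod, the product of the mature limb, stayed low in all libraries, at 0.0698, 0.167 and 0.155 FPKM. Kcnj1, a potassium channel of the same segment, had 0.0149, 0.454 and 0 FPKM. The calcium-binding protein gene Calb1, which the embryonic bud expresses too, led the list with 10.9, 37.8 and 8.37 FPKM.

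Both ends of the ureteric tree were represented. Tip genes had a median of 17.7 FPKM and 15 of 17 were at 1 FPKM or more in every library. Ret, the receptor through which the tip answers to Gdnf, had 5.37, 5.26 and 3.45 FPKM. Its transcriptional targets Etv4 (66.9, 54.0 and 50.3 FPKM) and Etv5 (25.2, 31.2 and 23.8 FPKM) were higher than Ret itself, and Wnt11, the tip ligand, had 20.9, 14.7 and 15.5 FPKM. The lowest tip gene was Kcnn4, at 0.510 ± 0.229 FPKM. Trunk and collecting duct genes had a median of 4.96 FPKM, or 3.03 FPKM without control 2. Of these genes 17 of 22 were highest in control 2, against 42.2% of all genes. Krt8, a keratin of simple epithelium, had 30.6, 66.4 and 34.2 FPKM and its partner Krt18 28.5, 57.6 and 28.6 FPKM. Wnt9b, by which the bud induces nephrons, had 2.24, 4.13 and 1.86 FPKM, and Wnt7b, which acts from the trunk on the medulla, had 1.22, 4.83 and 1.19 FPKM. The epithelial adhesion gene Epcam was also highest in control 2, with 40.5, 47.1 and 30.9 FPKM. Aqp2, the water channel of the mature principal cell, had 0 FPKM in controls 1 and 3 and 0.113 FPKM in control 2.

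Cortical stroma had the highest median over all members of the cell type lists. All 22 genes were at 1 FPKM or more in every library, 20 were at 10 FPKM or more, and the median was 36.6 FPKM, or 43.9 FPKM without control 2. Foxd1, the defining transcription factor, had 75.8, 31.5 and 82.4 FPKM. Aldh1a2, the enzyme by which stroma makes retinoic acid, had 285, 229 and 323 FPKM. The netrin gene Ntn1 had 59.1, 19.9 and 52.5 FPKM and the delta-like gene Dlk1 78.1, 40.4 and 91.2 FPKM. Other high members were the retinoid-binding protein gene Crabp1, with 168, 96.9 and 276 FPKM, Tcf21, and the matrix gene Tgfbi, with 149.7, 49.5 and 154 FPKM. Of the 22 genes, 20 were lowest in control 2, against 38.9% of all genes. The medullary and ureteric stroma list had a median of 8.82 FPKM. Tbx18, of the ureteric mesenchyme, had 12.5, 4.97 and 12.2 FPKM and the homeobox gene Alx1 3.70, 8.29 and 5.09 FPKM. The opioid precursor gene Penk had 17.96, 41.1 and 32.0 FPKM, and Bmp4, a mesenchymal growth factor around the ureter, 23.3, 13.9 and 19.2 FPKM.

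Collagens followed the stroma. These genes build the fibrils and basement membranes of connective tissue. Of 42 listed genes 39 were lowest in control 2, against 38.9% of all genes. The family took 0.329%, 0.117% and 0.356% of the summed FPKM. Col1a1 had 328, 63.0 and 365 FPKM, Col3a1 230.4, 83.8 and 309 FPKM and Col1a2 214, 67.5 and 256 FPKM. The proteoglycan Gpc3, whose loss causes overgrowth, had 589.7, 216 and 619 FPKM. It held 74.1% of the FPKM of the glypicans and syndecans.

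Endothelium was the steadiest of the renal cell type lists except for nephron progenitors, with a median CV of 18.2%. All 18 genes were at 1 FPKM or more in every library and the median was 11.9 FPKM. Pecam1, an adhesion molecule of all endothelium, had 18.1, 15.1 and 17.3 FPKM, and Cdh5, the vascular cadherin, 19.9, 10.02 and 20.1 FPKM. The receptors Kdr (9.78, 6.40 and 8.61 FPKM) and Tek (4.85, 5.82 and 6.99 FPKM) were lower. The highest was Ramp2, a receptor-modifying protein, at 72.7, 42.0 and 52.6 FPKM, and the lowest was Robo4, at 3.01 ± 0.825 FPKM. Smooth muscle and mural genes were lower, with a median of 7.47 FPKM. Acta2, smooth muscle actin, had 8.03, 24.6 and 14.5 FPKM and Tagln 4.11, 13.4 and 7.86 FPKM. Myh11, the myosin of the mature smooth muscle cell, had 0.159, 0.625 and 0.172 FPKM. Ren1, renin, was present at 2.36, 5.06 and 4.60 FPKM. Pdgfrb, the receptor of mural precursors, had 17.4, 11.9 and 18.8 FPKM.

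Macrophage genes were low, with a median of 1.59 FPKM and a median CV of 25.5%. The highest by its mean was Cd68, a lysosomal protein, with 6.18, 2.50 and 4.40 FPKM. The complement genes C1qa (3.35, 4.33 and 4.89 FPKM) and C1qb (3.12, 3.89 and 5.16 FPKM) and the receptor Csf1r (0.975, 0.984 and 1.17 FPKM) were seen in each library. Ptprc, the common leukocyte antigen, had 0.136, 0.7505 and 0.156 FPKM.

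Markers of neighbouring tissues were checked in the same way. Defining genes of the adrenal cortex were close to absent: Cyp11a1, Star and Nr5a1, of steroid synthesis, had means of 0.0749, 0.191 and 0.138 FPKM. Of its 9 listed genes 4 were at 1 FPKM or more in every library, with means of 12.03 FPKM for the lipoprotein receptor Scarb1, 9.26 for the electron carrier Fdx1, 6.48 for Akr1b7 and 1.81 for Mc2r. Liver genes were below 1 FPKM in every library for 11 of 12 members, with Alb at 0.383, 0.275 and 0.480 FPKM and Afp at 0.111, 1.64 and 0.454 FPKM. Of 6 listed gonad genes 5 were below 1 FPKM in every library, with Amh at 0.604, 0.406 and 0.609 FPKM and the germ cell gene Ddx4 at 0.122, 0.159 and 0.0811 FPKM, and the inhibin subunit Inha was higher, at 5.99, 3.62 and 5.08 FPKM. Neural genes had a median of 0.3501 FPKM, with Tubb3 at 0.785, 0.897 and 1.13 FPKM. Of 19 listed neural genes 12 were below 1 FPKM in every library and 4 at or above it in every library. These 4 were Gap43 (6.26, 6.91 and 10.3 FPKM), Elavl4 (5.90, 3.17 and 3.49 FPKM), and Ddc and Stmn2 with means of 2.58 and 2.49 FPKM. Skeletal muscle genes were not at background. Myog, the regulator of myoblast differentiation, had 4.32, 3.60 and 6.48 FPKM and the embryonic myosin Myh3 4.71, 4.25 and 7.36 FPKM. Of 14 muscle genes 10 were at 1 FPKM or more in every library, and Ckm, of mature muscle, was at 0.0334, 0.320 and 0.0445 FPKM. In the cartilage list Col2a1 had 36.5, 7.99 and 20.4 FPKM, whereas Acan, the proteoglycan of mature cartilage, had 0.00623, 0.0542 and 0.0111 FPKM. The part of adjoining tissue in these muscle and cartilage values was not tested.

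Genes of cell division were high throughout. All 21 genes of the proliferation list were at 10 FPKM or more in every library, and their median was 59.4, 79.8 and 71.6 FPKM in the libraries, beside 62.6, 75.2 and 68.2 FPKM for housekeeping genes. Pcna, the clamp of DNA polymerase, had 142, 196 and 162 FPKM, and Top2a, which untangles replicated DNA, 84.1, 103 and 96.3 FPKM. The mitotic cyclin Ccnb1 had 63.0, 88.3 and 72.5 FPKM. Mki67, by contrast, was lowest in control 2, with 43.5, 30.5 and 46.0 FPKM. Immediate early genes, which respond to dissection and handling, spanned a wide range. Fos had 0.609, 0.605 and 0.811 FPKM and Egr1 6.06, 6.40 and 5.75 FPKM, whereas Jun had 27.9, 24.5 and 34.1 FPKM and Ier2 65.7, 52.4 and 58.7 FPKM. The median of the list was 5.995 FPKM and its median CV 9.95%.

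Genes of the main signalling systems of kidney growth were detected. Gdnf, the mesenchymal ligand that attracts the bud, had 21.7, 15.1 and 18.6 FPKM, and its coreceptor Gfra1 had 22.3, 20.8 and 15.9 FPKM. With Ret at a mean of 4.69 FPKM, the receptor tyrosine kinase was the lowest of the 3. Spry1, the inhibitor that restrains this pathway, had 35.8, 40.5 and 29.8 FPKM. Grem1, the bone morphogenetic protein antagonist, was low at 0.298, 0.144 and 0.108 FPKM.

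Among Hedgehog genes the ligands were low and the transducer Smo was high. Shh, made by the medullary and ureteric epithelium, had 1.03, 1.11 and 0.929 FPKM, and Ihh and Dhh had means of 0.263 and 0.176 FPKM. Ptch1, the receptor of which every control carries 1 floxed allele, had 8.26, 7.91 and 7.60 FPKM, a spread of 0.331 (SD). Smo, the transducer that Ptch1 restrains, was the steadiest defining gene, at 65.9, 64.6 and 66.5 FPKM. Gli1, the transcription factor whose own expression reports the pathway, had 17.3, 12.7 and 21.3 FPKM. The coreceptors Gas1 (166, 86.7 and 146 FPKM) and Boc (26.5, 10.5 and 24.8 FPKM) were lowest in control 2. Of the 18 genes 12 were lowest there, against 38.9% of all genes. The transcription factors Gli2 and Gli3 had means of 6.19 and 9.49 FPKM, and their regulators Sufu and Kif7 11.5 and 9.06 FPKM. Hhip, a target and antagonist, was at 0.389, 0.229 and 0.435 FPKM.

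In the retinoic acid pathway the enzyme and the binding proteins were the highest. Beside Aldh1a2 and Crabp1, Crabp2 had 198, 94.3 and 191 FPKM. Among the receptors were Rara (21.7, 16.5 and 19.7 FPKM), Rarb (14.4, 21.5 and 18.6 FPKM) and Rxrb, which was almost constant at 36.4, 36.5 and 35.9 FPKM. Rarg, Rxra and Rxrg had means of 20.7, 16.7 and 1.28 FPKM. The degrading enzyme Cyp26a1 was lowest, at 0.597 ± 0.295 FPKM.

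Among Wnt ligands Wnt4 and Wnt11 were followed by Wnt5b (11.3, 7.67 and 13.0 FPKM), and 8 of 16 listed ligands were at 1 FPKM or more in every library. The Frizzled receptors Fzd2 (73.7, 42.4 and 73.0 FPKM), Fzd7 (68.7, 28.9 and 60.4 FPKM) and Fzd1 (40.4, 28.6 and 43.2 FPKM) were higher than any Wnt. For fibroblast growth factors the pattern was alike, with the ligand Fgf8 below the receptor Fgfr1 (111, 64.8 and 82.4 FPKM) and Fgfr2 (30.2, 24.9 and 27.4 FPKM). Bmp7, which supports nephron progenitors, led the bone morphogenetic proteins with 34.5, 24.5 and 28.2 FPKM. Notch2, the receptor needed for proximal fates, had 12.2, 7.95 and 11.6 FPKM.

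Transcription factors were ordered by their mean level. Among 194 listed genes of the families searched, Id3, an inhibitor of helix-loop-helix proteins, was the highest, with 268, 265 and 298 FPKM. Nr2f2, the nuclear receptor COUP-TFII of mesenchyme and veins, had 178, 117 and 150.1 FPKM, and Six2 was next with a mean of 144 FPKM. Id2 had 108, 95.5 and 103 FPKM and Sox4 130, 77.3 and 93.3 FPKM. Foxd1 stood 14th in this order with a mean of 63.2 FPKM and Pax2 18th with 52.4 FPKM. All 7 Meis and Pbx genes were lowest in control 2, and all 6 Iroquois genes, of which Irx1 marks the middle of the forming nephron, were highest there.

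Hox genes, which pattern the body axis, were highest in paralogue groups 9 to 11. Of 39 mouse Hox genes 36 were in the table and 31 were at 1 FPKM or more in every library. Summed over a paralogue group, FPKM was 2.27 in group 1, 29.9 to 74.9 in groups 2 to 8, 109 in group 9, 183 in group 10, 87.2 in group 11, 11.4 in group 12 and 0.901 in group 13. The highest genes were Hoxa10 (96.8, 61.9 and 72.2 FPKM), Hoxc10 (71.8, 56.8 and 77.6 FPKM) and Hoxa11 (60.04, 38.9 and 48.5 FPKM). Group 11, whose combined loss prevents kidney formation, also held Hoxd11, with 30.4, 31.7 and 28.8 FPKM, and Hoxc11, with 10.2, 4.58 and 8.54 FPKM. Hoxb7, used as a marker of the ureteric bud, was one of the 6 Hox genes highest in control 2, with 26.0, 44.5 and 26.7 FPKM. The most posterior genes Hoxa13 and Hoxd13 had means of 0.362 and 0.540 FPKM. By cluster the sums were 213 (a), 239 (b), 140 (c) and 147 FPKM (d).

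**Figure D3:**
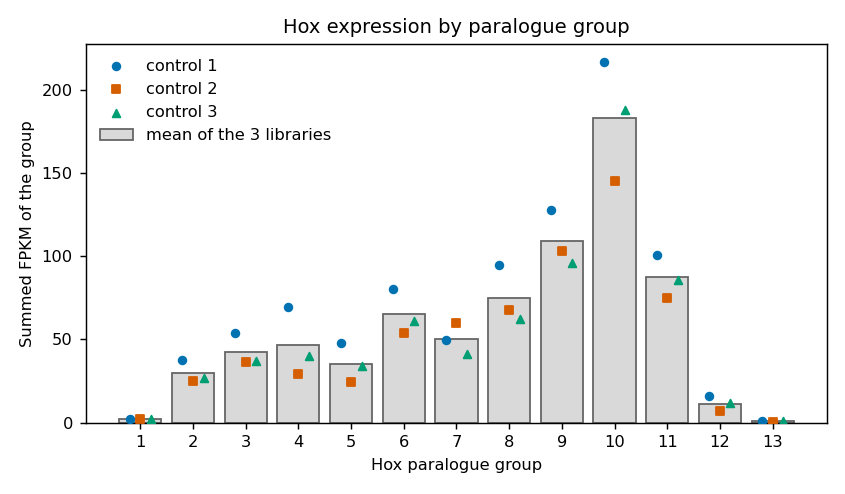
Summed FPKM of the listed Hox genes (vertical axis, from 0) by paralogue group, with bars for the mean of the 3 libraries and points for controls 1, 2 and 3. Group 10 was highest at 183 FPKM, with 217, 145 and 188 FPKM in the libraries, and group 13 lowest at 0.901 FPKM.

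The spread between libraries exceeded counting error at every level. The median CV over the 16682 genes that averaged 10 or more normalized counts was 17.3%. Between pairs of libraries it was 10.5% for controls 1 and 3, 14.1% for controls 2 and 3 and 18.9% for controls 1 and 2. A CV of 2 libraries is not on the scale of a CV of 3, so the pairs are to be read against each other. For genes with 10 to 30 normalized counts the median CV was 36.6% against 24.3% from counting alone. For those with 10000 or more it was 12.9% against 0.773%. For those with 300 to 1000 it was 13.9% against 4.07%, so most of the spread of well expressed genes was not counting error.

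**Figure D4:**
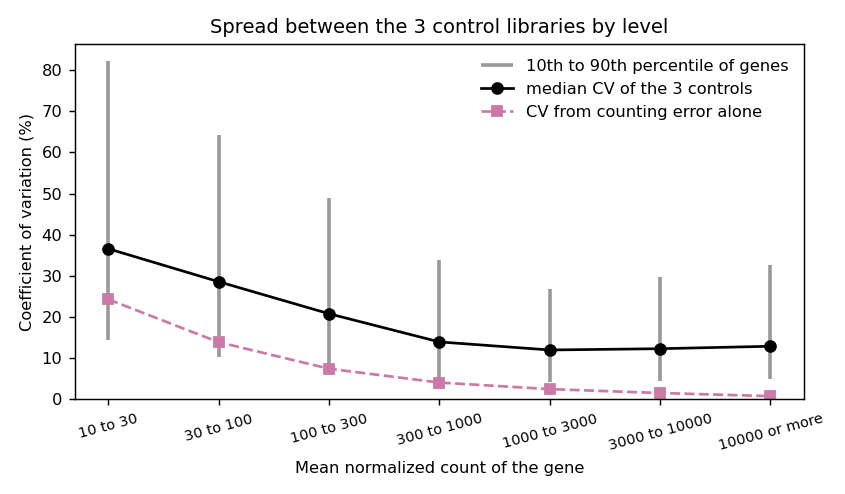
Coefficient of variation between the 3 controls (vertical axis, percent) for genes grouped by mean normalized count, with black points for the median, grey bars from the 10th to the 90th percentile of genes and a dashed line for counting error alone. The median was 36.6% in the lowest group and 12.9% in the highest, against 24.3% and 0.773% from counting error.

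A few genes hardly varied. The taurine transporter Slc6a6 had 14.94, 15.004 and 14.97 FPKM, a CV of 0.222%, the smallest among the 11931 genes that averaged 100 or more normalized counts. The replication licensing factor Cdt1 had 33.3, 33.3 and 33.4 FPKM and the endocytic adaptor Epn1 62.1, 61.6 and 61.9 FPKM. Scap, the escort of sterol regulatory proteins, had 15.9, 15.8 and 15.8 FPKM. With so many genes and 3 libraries some will lie this close together, and these values are a description. Genes used as references were not picked by their CV, so they cannot be ranked against these. The housekeeping list had a median CV of 13.6%, beside 13.9% over all genes averaging 100 or more. Gapdh had 521, 524 and 614 FPKM, and Tbp was even at 3.29, 3.18 and 3.16 FPKM. Among the more variable members were Hprt, with 31.3, 55.3 and 38.9 FPKM, and Pgk1, with 135, 282 and 199.9 FPKM.

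Control 2 accounted for most genes with an outlying library. It was at least 2-fold from both other controls at 1303 of 16682 genes (7.81%), 602 higher and 701 lower. The same count was 470 (2.82%) for control 1 and 219 (1.31%) for control 3. Among genes that averaged 100 or more the counts were 486, 48 and 44 of 11931 genes for controls 2, 1 and 3. Over all 16682 genes control 2 was the highest library at 42.2% and the lowest at 38.9%.

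By gene group, the nephron segment, ureteric trunk and smooth muscle lists were mostly higher in control 2, and cortical stroma, collagens and mitochondrial transcripts were lower. Of the genes that set control 2 apart upwards, Pdzk1, a scaffold of brush border transporters, had 0.524, 13.0 and 0.691 FPKM, and Irx1 0.483, 8.82 and 0.840 FPKM. Ly6a, a membrane protein, had 1.68, 26.6 and 1.79 FPKM and Hdc, which makes histamine, 0.0608, 2.89 and 0.180 FPKM. Of the genes that were lower, the Col1a1 values given above and those of mt-Nd4 (1973, 179 and 1076 FPKM) were among the 10 farthest. Median differences of control 2 from the mean of the others, on the log2(FPKM + 0.1) scale, were 2.14 for the loop and distal list, 1.23 for the proximal tubule, 1.02 for the ureteric trunk, 0.88 for the early nephron and 0.62 for smooth muscle and mural cells. They were -0.70 for the cortical stroma, -0.61 for the imprinted list and -0.57 for the Hedgehog list. Housekeeping genes were at -0.02, nephron progenitors at -0.14 and endothelium at -0.17. Read with the globin ratio and the Y-linked genes, these values show that control 2 differed from the other libraries in nephron markers, stroma, red cells, mitochondrial reads and sex at once, and the part of each in the others was not tested.

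**Figure D5:**
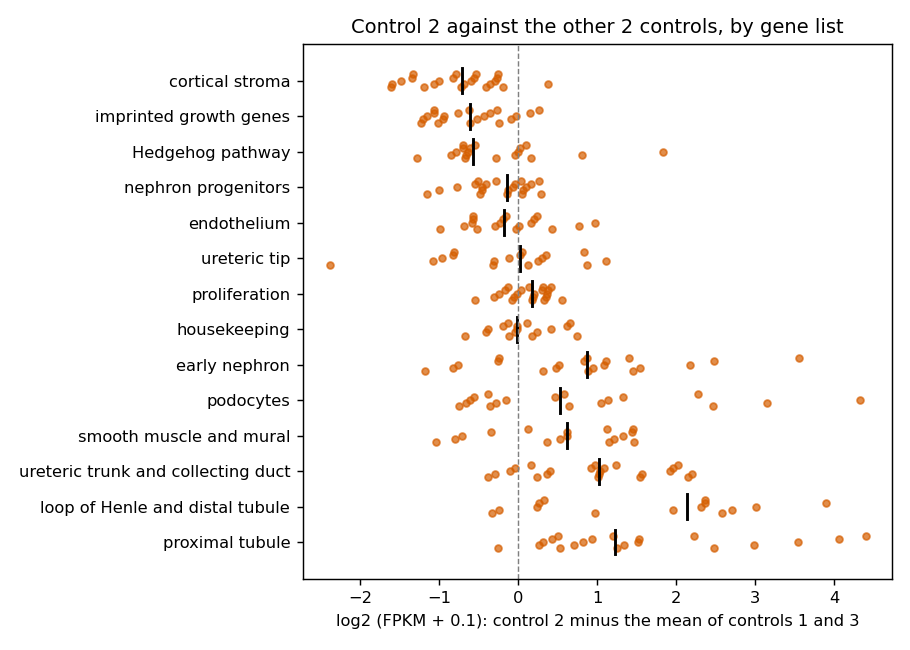
Difference of control 2 from the mean of controls 1 and 3 on the log2(FPKM + 0.1) scale (horizontal axis) for each gene of 14 lists, with 1 point per gene and a black bar at the median of the list. Cortical stroma lay below 0 at 21 of 22 genes (median -0.70) and the loop and distal list above 0 at 12 of 14 (median 2.14).

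Pseudogenes were frequent among the outlying genes of controls 1 and 3. They made up 15 of the 77 genes that lay above in control 3 and 32 of the 142 below, against 1086 of all 16682. In control 1 they made up 57 of 304 above and 33 of 166 below. In control 2 they made up 34 of 602 above and 71 of 701 below. Among the 10 farthest above in control 3, 8 were pseudogenes, led by Gm15772 with 21.7, 11.3 and 597 FPKM and Gm8730 with 8.74, 9.66 and 159 FPKM. Those below in control 3 included Rpsa-ps10 (442, 453 and 16.3 FPKM), and Rps19-ps6 was apart in control 1 (130.3, 6.92 and 9.66 FPKM). These loci are near copies of ribosomal protein genes: 82.3% of the windows of Rpsa-ps10, 91.5% of those of Gm15772 and 93.8% of those of Rps19-ps6 occur in other annotated genes. The parent Rpsa had 1124, 1097 and 1594 FPKM and the parent Rpl26 1471, 1248 and 788 FPKM. By the ratio of highest to lowest library these moved far less, 1.45-fold and 1.87-fold, against 27.8-fold for Rpsa-ps10 and 52.8-fold for Gm15772. In control 3 parent and copy shifted in opposite directions. FPKM is scaled to length, and the transcripts have 1938 bases for Rpsa, 885 for Rpsa-ps10, 657 for Rpl26 and 438 for Gm15772. The sizes of these shifts in FPKM are therefore not sizes in reads, and an exchange of reads between them was not tested. Rpsa was highest where Rpsa-ps10 was lowest, and Rpl26 was lowest where Gm15772 was highest. With most of their windows shared with other genes, the values of these single pseudogenes are uncertain in these libraries. Among the genes averaging 100 or more, 15 coding genes lay above and 19 below in control 1, among them Fggy, a carbohydrate kinase gene, with 0.121, 3.07 and 2.08 FPKM.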

How the data were processed

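Per the labels' protocols, RNA of whole E13.5 kidneys was extracted on micro columns and made into libraries with an mRNA kit. Per the submitters' processing notes, the build was mm10 and the tools were STAR 2.6.0c, HTSeq 0.6.1p2, DESeq2 and Trim Galore. The strand setting of the counting was not given in the sources used here, and overlapping genes may have exchanged or lost reads. The authors deposited 1 table with FPKM per library, a mean normalized signal, a log2 fold change, its error and test score, and p-values with their adjusted form, per the file headers and values; the comparison columns were not used. No header names the FPKM unit. The deposited FPKM, times the mean signal over the mean FPKM, gave normalized counts that were whole reads for 100% of 134364 values (tolerance 1e-06 of a read). At all 20303 identifiers of the same version, the implied gene length was that of the longest GENCODE M21 transcript to within 1%, which understates genes whose main transcript is shorter. Every listed gene had at least 10 reads over the 6 libraries.

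Levels were described per library with no test, since no groups were compared. Python 3.11.15, numpy 2.4.6 and pandas 2.3.3 were used. CVs and 2-fold counts used genes averaging 10 or more normalized counts and a pseudocount of 1. The measures were checked on simulated counts of genes averaging 100 or more only. That check does not cover genes averaging 10 to 100, where counting error is larger. Shared sequence was counted in 50-base windows of the longest transcripts on both strands. Named genes were the 20 most abundant, the highest non-coding genes, the defining, highest and lowest members of 27 lists, the highest of 46 families, the most and least variable genes and those farthest from the other libraries; further members of these lists were chosen after their values were seen. Members and lists were chosen with earlier results of these data known. Each control counts as 1 replicate, since the labels give separate samples of littermates. Alternatives were other FPKM and count minimums, pseudocounts, rescaling, transcript length, defining markers only, the median of the 3 controls and leaving out each library. The count of reads limits precision at low levels; depths were 21644399 to 25416896 reads. Some genes that the naming rule would name are not reported here.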

Additional observations from a re-analysis of the deposited data

How the results depend on the processing

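No paired analysis was possible because the controls were not compared with another group. The count of genes at 1 FPKM or more in all 3 controls (12537) ranged from 11013 with a minimum of 2 FPKM to 14356 with each library rescaled to 1 common total, and from 12693 to 12914 with 1 library left out. The 100 genes with the most reads held 16.8% of the reads. The 100 most abundant genes by FPKM held 26.9% of summed FPKM without mitochondrially encoded and globin genes. They held 26.4% with the median length of coding transcripts, a setting added after the data were seen. With 1 library left out they held 27.7% to 28.9%. Ribosomal protein genes held 7.56% of the reads. They held 17.4% of summed FPKM without mitochondrially encoded and globin genes, 14.7% with the median length and 16.6% to 16.8% with 1 library left out. The median CV was 13.9% for counts of at least 100 and 23.3% with no filter, and 10.5% to 18.9% with 1 library left out, lowest without control 2. The 1303 genes with control 2 apart were 486 for counts of at least 100, 2561 with no filter and 853 with a pseudocount of 10. Of the 20 most abundant genes, predicted genes included, 11 stayed in that set with the median coding transcript length. Leaving out control 2 moved the medians of 5 of 27 lists by over 1.5 times (proximal tubule, loop and distal, ureteric trunk, liver and sex-linked), all downwards, and leaving out control 1 or control 3 moved none. With defining markers only, 19 of 27 medians moved by over 1.5 times, 16 upwards and 3 downwards, such as 18.8 to 989.7 FPKM for erythroid cells, 0.483 to 13.7 FPKM for cartilage and bone, and 1.11 to 0.156 FPKM for the loop and distal list. Rescaling to 1 common total raised all 27 medians 2.31-fold to 2.41-fold. The depth of 21644399 to 25416896 reads makes levels of a few hundredths of an FPKM rest on single reads.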
